A study of Rattus norvegicus with 25 samples.

Results

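Creb1, Crem, Crtc1, Srf and Sik1 are 5 regulators that stand between synaptic activity and the genes it switches on. They were taken as all probe sets to which the platform annotation gives exactly 1 of these symbols, which found 5 probe sets, 1 per gene, of 29214 in the table (5 of 14506 genes with a symbol of their own). Striatal RNA was taken from male rats of the Lister Hooded strain between PND 35 and 42 (days after birth), and each rat was measured on its own Affymetrix rat gene 1.0st array, on which sets of short probes are combined into 1 log2 value per probe set. Offspring of 3 kinds of dam were compared, with 7 Nic, 10 Con-Pf and 8 Con arrays. Nic dams drank nicotine bitartrate in their water, begun before mating and continued in pregnancy, with brief tap water on days of low intake. Con-Pf dams drank water at will and had their daily ration set by what the Nic dams paired with them ate, and they serve both as the food-matched control of Nic and as a food-restricted group beside Con. Con dams had no nicotine and no restriction of food. The offspring themselves were experimentally naive. Litters are not identified in the sources used here, so that p-values measure the spread between animals and not between litters. The study counts fewer Con-Pf dams than the 10 Con-Pf arrays, so some Con-Pf animals must be littermates, and animals of the other groups may be. The number of arrays limits the precision.

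CREB1 is a leucine zipper factor that binds the cyclic AMP response element (CRE) and becomes active when kinases downstream of cyclic AMP, calcium and growth factors phosphorylate it. CREM is its close relative, and its gene also encodes short repressors, named ICER, that start from an internal promoter and are induced by CREB itself. CRTC1 is a coactivator that enters the nucleus after calcineurin removes its phosphates. SIK1 is a kinase that puts them back, and its own gene is a CREB target, which closes a negative feedback loop. SRF binds the CArG box with either the ternary complex factors (TCF), which answer to MAP kinase, or the MRTF coactivators, which answer to actin. In the striatum dopamine and glutamate signals converge on these factors.

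The sequences before the annotated starts are shown because CREB and SRF act through short elements of known letters, which can be looked for there. They are RefSeq sequences of build GRCr8, in which all 5 genes had at least 1 start. The 250 bases before each start were searched on both strands for the full CRE (TGACGTCA), for its first 5 bases alone (TGACG, here the short CRE) and for the CArG box. Capitals mark short CREs in Sik1 (read from the opposite strand), CArG boxes in Srf and full CREs in Crem. The stretches lie at chr20:9958811-9958848 on the minus strand for Sik1, at chr9:21923984-21924035 on the plus strand for Srf, and at chr17:58984730-58984759 and chr17:58985444-58985473 on the plus strand for starts 2 and 3 of Crem.
Sik1: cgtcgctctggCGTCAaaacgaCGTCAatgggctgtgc
Srf: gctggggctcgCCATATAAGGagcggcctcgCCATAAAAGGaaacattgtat
Crem, start 2: tgataggctggTGACGTCActgtgatgtca
Crem, start 3: gttcaaagggcTGACGTCAttacatttcct
Counted in bases from the start, the 2 short CREs of Sik1 begin at -191 and -180. The 2 CArG boxes of Srf begin at -81 and -61, and Srf also has 1 short CRE. The later Crem starts each have a full CRE, which begins at -56 and -35 and which contains a short CRE on each strand, while the window of the first Crem start has only 2 short CREs. Creb1 has 2 short CREs before its first start and none before its second, and the Crtc1 window holds none of the 3 motifs. Over all 33469 windows of this length, 1.59% held a full CRE, 18.2% a short CRE and 1.5% a CArG box. A match describes letters and not a bound site. The sources used here do not say which Crem transcripts its single probe set measures.

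**Figure D1:**
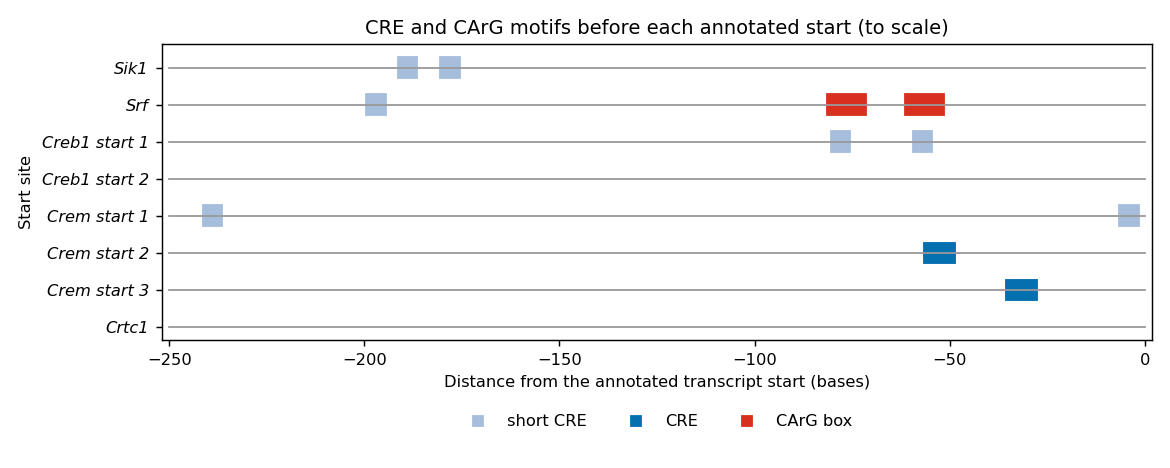
Position of short CREs, full CREs and CArG boxes in the 250 bases before each annotated start of the 5 genes, to scale, with the distance from the start in bases on the horizontal axis and each start on its own row. Srf alone among the 5 genes holds CArG boxes, the later Crem starts hold full CREs, and Crtc1 and the second start of Creb1 hold none.

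Probe sets with an average of at least 6.97 on the log2 scale, the middle value of such averages, were kept. These were 14607 and included all 5 regulators, and limma fitted them in 1 model over the 3 groups. An adjusted p under 0.05 (Benjamini-Hochberg, 14607 tests) counted as a call. Any pair of arrays correlated at 0.967 to 0.997 over these probe sets. On the first principal component (30.4% of the variance) Con 3 and Con 5 stood apart, and without them (a choice made after seeing the data) the calls over all probe sets numbered 85 instead of 184 in Con-Pf against Con. Con-Pf 9 and Con-Pf 10 carry a Con-Pf title, although their description reads control, and were treated as Con-Pf. The statistics part of the study's methods also counts fewer Con-Pf and more Con animals than the titles do. The sample preparation part of the same methods, less the arrays that the authors removed, gives the counts of the titles. The authors also kept a sample with a low RNA integrity reading, which the sources used here do not identify. For the label striatum, markers of striatal projection neurons were read. Ppp1r1b averaged 12.88 in Nic, 12.88 in Con-Pf and 12.84 in Con, and Penk 13.21, 13.23 and 13.17 in the same order. Of 9 such markers tested 0 was called by limma in any comparison. In Con-Pf against Con 6 of the 9 had a positive difference, while Drd1 had -0.05, Rgs9 -0.02 and Pde10a -0.14 (adjusted p = 0.141 from limma). A lack of calls compares the groups and cannot by itself check the label. In whole tissue, fewer cells of a type and less RNA per cell cannot be told apart. Levels of different probe sets are not comparable with each other, so each gene is read against itself, and sums over markers serve only to set arrays beside each other.

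Sik1 (probe set 10832197, gene at chr20:9947104-9958729 on the minus strand of GRCr8) had the largest difference of the 5 regulators between Con-Pf and Con. Its log2 level in Con-Pf was lowest in Con-Pf 7 at 9.03, had a median of 9.25 and was highest in Con-Pf 8 at 9.41. In Con it ran only between 8.82 in Con 3 and 9.00 in Con 8, with a median of 8.88. Every Con-Pf array thus lay above every Con array, Con-Pf 9 (9.11) and Con-Pf 10 (9.35) included. Of the 14607 probe sets, 0.233% were separated in this way with Con-Pf higher. The means were 9.24 ± 0.13 in Con-Pf (SD, n = 10) and 8.90 ± 0.07 in Con (SD, n = 8), a log2 difference of 0.34 (standard error 0.05, 95% interval 0.24 to 0.44), or 1.27-fold (adjusted p = 9.45e-05 from limma). By p-value this was number 22 of the 14607 probe sets. Without Con 3 and Con 5 the difference was 0.33 (adjusted p = 0.00108 from limma). With Con-Pf 9 and 10 counted as Con it was 0.28 and the call was lost (adjusted p = 0.0577 from limma).

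Sik1 in Nic lay between the other groups. The 7 Nic arrays held values from 8.96 in Nic 3 to 9.12 in Nic 6, with a median of 9.02. Of these, 4 lay below every Con-Pf array and 4 above every Con array, so that Nic overlapped with both. The Nic mean was 9.03 ± 0.06 (SD, n = 7). Against Con-Pf the log2 difference was -0.22 (standard error 0.05, 95% interval -0.32 to -0.11), the smallest p among the 5 genes and number 37 of all probe sets, yet it did not pass over all probe sets (adjusted p = 0.0803 from limma, and 0.0663 to 0.768 under the alternatives other than leaving out 1 array). This turned on Con-Pf 7, the Con-Pf array with the least Sik1: without it the difference was -0.24 and passed (adjusted p = 0.0150 from limma). Against Con, Nic had a log2 difference of 0.13 (standard error 0.05, 95% interval 0.02 to 0.23, adjusted p = 0.279 from limma).

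Srf (probe set 10921550, gene at chr9:21924050-21933338) moved in the same direction as Sik1 and by less. Its log2 level in Con-Pf was between 10.62 in Con-Pf 5 and 10.89 in Con-Pf 10, with a median of 10.70. In Con it was between 10.42 in Con 2 and 10.71 in Con 7, with a median of 10.52. Con 7 alone reached into the Con-Pf range, and the other 7 Con arrays lay below all 10 Con-Pf arrays. The means were 10.71 ± 0.08 in Con-Pf (SD, n = 10) and 10.53 ± 0.08 in Con (SD, n = 8), a log2 difference of 0.18 (standard error 0.04, 95% interval 0.10 to 0.25), or 1.13-fold (adjusted p = 0.0187 from limma). Srf was among the steadier probe sets, as 9.68% of all probe sets had a smaller SD within groups. The call was kept when any single array was left out (adjusted p from 0.00263 to 0.0447) but not in several other settings: it was lost without Con 3 and Con 5 (0.17, adjusted p = 0.0801 from limma) and without Con-Pf 9 and 10 (0.15, adjusted p = 0.0596 from limma). With Con-Pf 9 and 10 counted as Con the difference was 0.10 (adjusted p = 0.424 from limma).

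In Nic, Srf was again intermediate and had little spread. Of the 7 Nic arrays, 6 lay between 10.58 and 10.63, and Nic 1 stood below them at 10.50. Those 7 arrays had a mean of 10.59 ± 0.04 (SD, n = 7), and 6 of them lay below every Con-Pf array. The log2 difference of Nic from Con-Pf was -0.12 (standard error 0.04, 95% interval -0.20 to -0.04) and did not pass (adjusted p = 0.638 from limma). From Con it was 0.05 (95% interval -0.03 to 0.14, adjusted p = 0.491 from limma).

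Creb1 (probe set 10923929, gene at chr9:73397333-73466339), which encodes the factor at the head of the pathway, did not differ beyond its spread. It ran between 8.71 and 9.04 in Nic (median 8.80), between 8.52 and 8.96 in Con-Pf (median 8.83) and between 8.46 and 8.90 in Con (median 8.72), and the groups overlapped throughout. Its log2 difference was 0.05 in Nic against Con-Pf (95% interval -0.08 to 0.18), 0.07 in Con-Pf against Con (-0.05 to 0.19) and 0.12 in Nic against Con (-0.01 to 0.25). In Con-Pf against Con the log2 rise of Sik1 (0.34) lay above the interval for Creb1, but Sik1 and Creb1 were not tested against each other. Unlike Sik1 and Srf, Creb1 had its highest mean in Nic (8.84 ± 0.12, SD, n = 7) and not in Con-Pf (8.79 ± 0.13, SD, n = 10), although this order was not resolved by the test.

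Crem (probe set 10795616, gene at chr17:58932011-59001160) and Crtc1 (probe set 10787570, gene at chr16:19022171-19080880) were higher on average in Con-Pf than in Con, without passing. The log2 level of Crem was 7.54 to 7.72 in Nic (median 7.68), 7.52 to 7.87 in Con-Pf (median 7.69) and 7.35 to 7.85 in Con (median 7.55), and the groups overlapped. It averaged 7.65 ± 0.07 in Nic (SD, n = 7), 7.69 ± 0.13 in Con-Pf (SD, n = 10) and 7.56 ± 0.16 in Con (SD, n = 8). The log2 difference of Con-Pf from Con was 0.13 (95% interval 0.00 to 0.25, adjusted p = 0.215 from limma), and the highest Con-Pf array (7.87) was close to Con 7 (7.85), while 4 Con arrays lay below all Con-Pf arrays. Without Con 3 and Con 5 it was 0.07 (adjusted p = 0.844 from limma). For Nic against Con-Pf the difference was -0.03 (-0.16 to 0.09) and for Nic against Con 0.09 (-0.04 to 0.23).

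Crtc1 differed most within Con. Its level was between 11.36 and 11.76 in Nic, with a median of 11.62, and between 11.57 and 11.81 in Con-Pf, with a median of 11.70. In Con it was 11.89, 11.93 and 11.76 in Con 6, Con 7 and Con 8 and between 11.20 and 11.46 in the other 5 arrays. The Con arrays thus reached both above and below the 10 Con-Pf arrays. The SD was 0.13 in Nic (n = 7), 0.08 in Con-Pf (n = 10) and 0.27 in Con (n = 8), and 81.5% of all probe sets had a smaller SD within groups. The mean of Con-Pf (11.70) exceeded that of Con (11.56) by 0.14 (95% interval -0.02 to 0.30, adjusted p = 0.276 from limma), by 0.09 without Con 5 (adjusted p = 0.596 from limma) and by 0.06 without Con 3 and Con 5 (adjusted p = 0.905 from limma). The difference of Nic from Con was 0.04 and changed sign without Con 5 (-0.01) and without Con 3 and Con 5 (-0.04). Against Con-Pf, Nic had -0.10 (95% interval -0.26 to 0.07, adjusted p = 0.999 from limma).

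**Figure D2:**
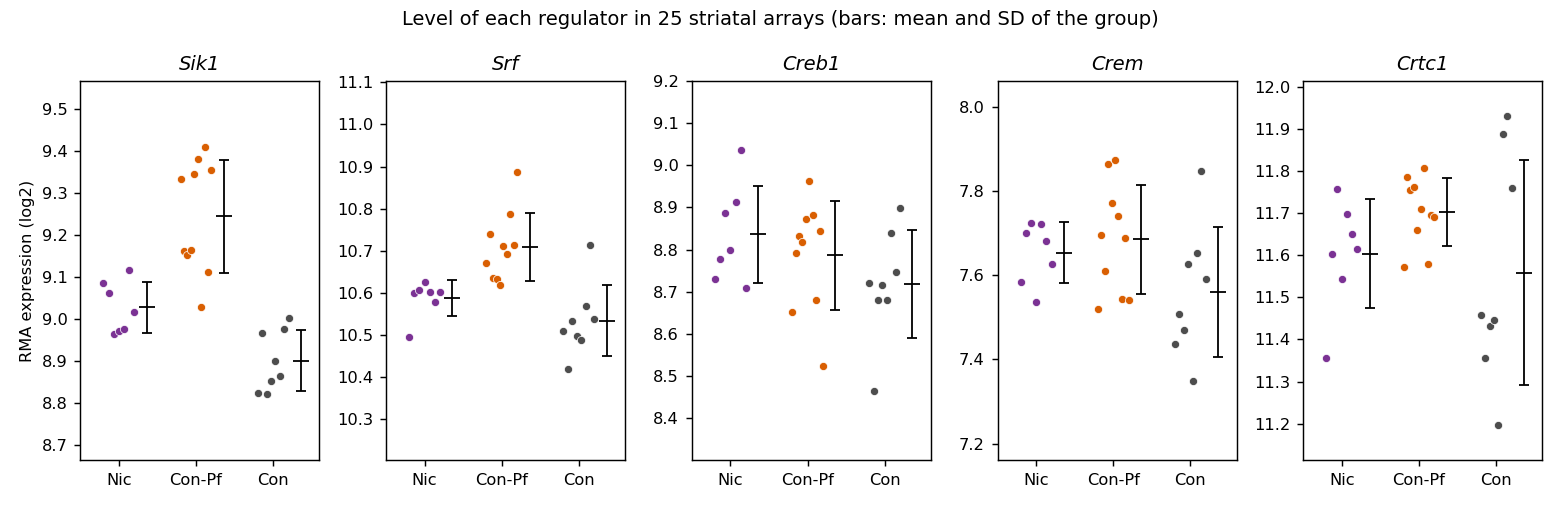
RMA expression on the log2 scale of Sik1, Srf, Creb1, Crem and Crtc1 in each of the 7 Nic, 10 Con-Pf and 8 Con arrays (points, each panel with its own level but the same height of scale), with the mean and SD of each group beside them. For Sik1 the Con-Pf arrays (9.03 to 9.41) lie above all Con arrays (8.82 to 9.00), for Srf only Con 7 reaches the Con-Pf range, and the other 3 genes overlap.

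In all, 2 of the 5 regulators, Sik1 and Srf, were called in Con-Pf against Con, both higher, where 1.26% of the 14607 probe sets were called and 1.00% were called higher (146 of 184 calls). At an unadjusted p under 0.05 it was 3 of the 5, with Crem added, where 22.0% of all probe sets reached it. The share of higher probe sets among the calls was 79.3%, and 66.5% after a further quantile normalization. All 5 regulators had a positive difference in this comparison, as had 55.8% of all probe sets. Between Nic and Con-Pf limma called 0 of the 5, where 0.185% of all probe sets were called. Of the 5, Sik1 and Srf had an unadjusted p under 0.05, as had 4.36% of all probe sets, and tests of each probe set on its own variance also called 0. Between Nic and Con limma called 0 of the 5 and 0% of all probe sets, with 1 of the 5 (Sik1) and 16.2% of all probe sets at an unadjusted p under 0.05, and the tests on single variances called 0 as well. The comparisons share groups, so that their values for the same gene are not independent. The 5 regulators were chosen with earlier results of these data known, so these counts are only a description.

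**Figure D3:**
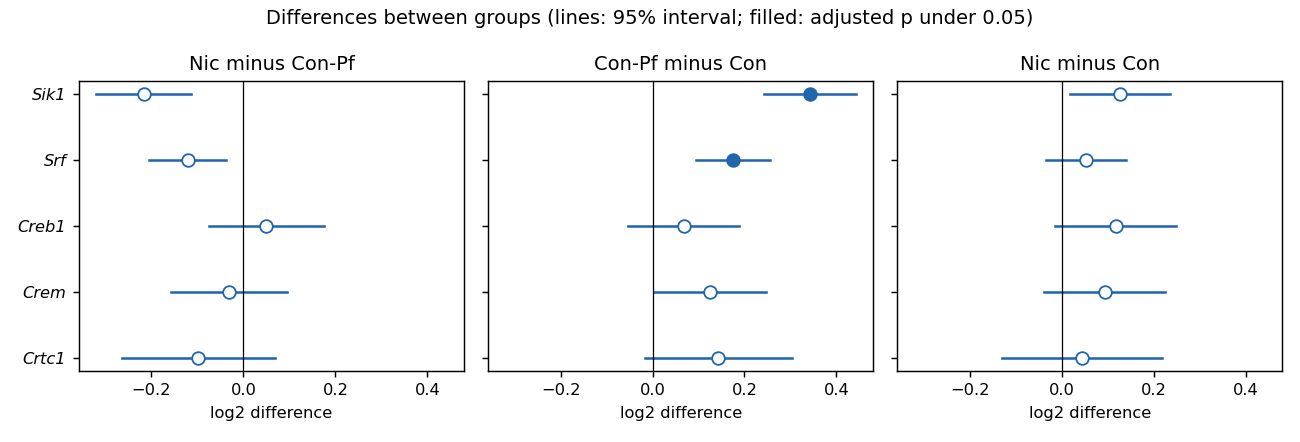
Log2 differences of the 5 regulators for Nic minus Con-Pf, Con-Pf minus Con and Nic minus Con, with 95% intervals from limma as lines and filled points for an adjusted p under 0.05. Sik1 (0.34) and Srf (0.18) are filled in Con-Pf minus Con, and no point is filled in the other panels.

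The 5 regulators were also compared with each other within groups. Correlations were computed for the 10 pairs in each group, 30 in all, and 0 passed after adjustment by either Pearson's r or Spearman's rho, with 4 at an unadjusted p under 0.05 for r. Among the 4 were Creb1 and Crem in Con-Pf (r = 0.81, permutation p = 0.00278, adjusted p = 0.0731, rho = 0.79, permutation p = 0.00886, adjusted p = 0.0886, n = 10), with r = 0.74 without the 2 arrays farthest from the median of Creb1. Crem and Crtc1 had r = 0.86 in Con (exact permutation p = 0.00536, adjusted p = 0.0731, rho = 0.79, exact p = 0.0279, adjusted p = 0.140, n = 8), and r was 0.67 without the 2 farthest arrays. Crtc1 and Srf had r = 0.79 in Con (exact permutation p = 0.00789, adjusted p = 0.0731, rho = 0.90, exact p = 0.00456, adjusted p = 0.0886, n = 8), and r was 0.55 without the 2 farthest arrays. Sik1 and Srf, both higher in Con-Pf, had r = -0.65 among the 7 Nic arrays (exact permutation p = 0.109, adjusted p = 0.326, rho = -0.93, exact p = 0.00675, adjusted p = 0.0886), with r = -0.58 without the 2 farthest, and r = 0.34 in Con-Pf and 0.20 in Con. Sik1 and Crtc1, the kinase gene and the gene of its substrate, had r = -0.77 in Con-Pf (permutation p = 0.00974, adjusted p = 0.0731, rho = -0.64, permutation p = 0.0549, adjusted p = 0.206, n = 10), with r = -0.74 without the 2 farthest arrays, and r was -0.46 in Nic and 0.35 in Con.

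By Pearson's r over the 25 arrays, the genes whose pattern was most like that of Sik1 were Dusp5, a MAP kinase phosphatase gene (0.91), Egr2, a zinc finger factor gene (0.91), and Klf4, a Krüppel-like factor gene (0.91). With group means removed these values were 0.64, 0.66 and 0.71, and without Con 3 and Con 5 they were 0.91, 0.90 and 0.90. Slc18a3, the vesicular acetylcholine transporter gene, was close to Sik1 only with group means removed (0.65, and 0.33 over all arrays). For Srf the nearest genes were Spata2L (0.87), the AP-1 gene Fosl2 (0.81) and Asb2 (0.81), and with group means removed 0.76, 0.56 and 0.76. With group means removed the nearest were Shank3, a postsynaptic scaffold gene (0.80, and 0.26 over all arrays), Numbl (0.79 and 0.52) and Sema4g, a semaphorin gene (0.78 and 0.48). These genes were chosen as the highest of all named genes, so the values describe likeness and are not tested. Arrays share their normalization, which all genes have in common.

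**Figure D4:**
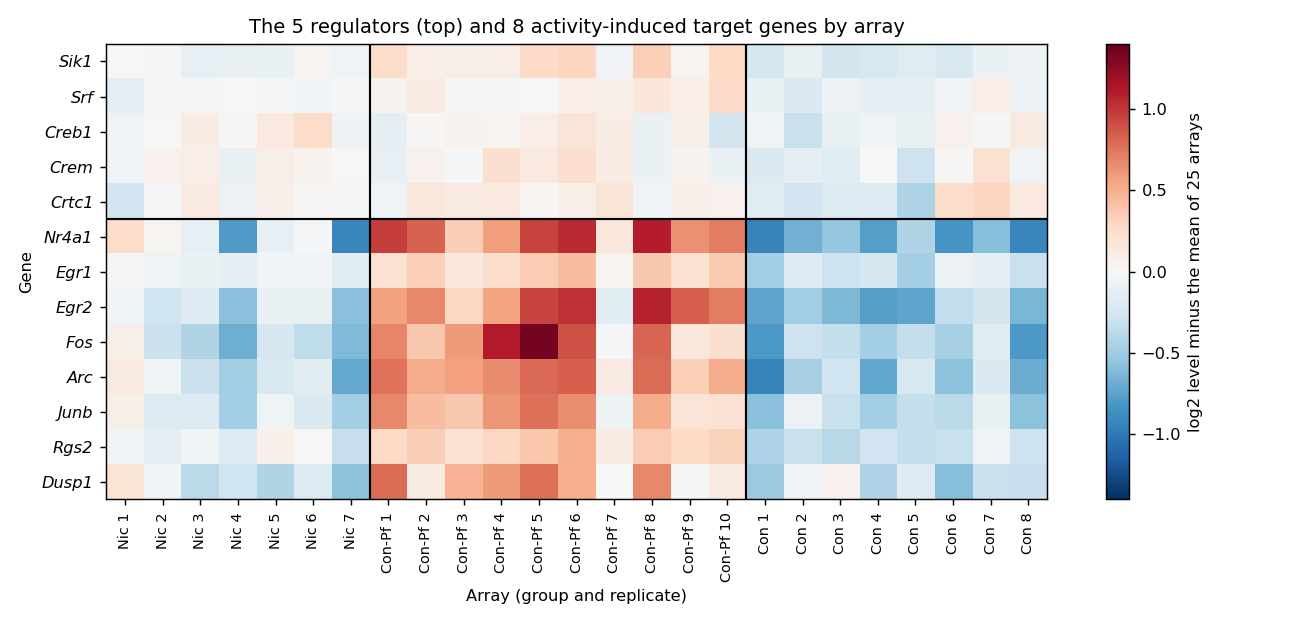
Log2 level minus the mean of the 25 arrays for the 5 regulators (above the line) and for 8 activity-induced target genes chosen with earlier results known (below it), by array, with the 7 Nic, 10 Con-Pf and 8 Con arrays separated by lines. Con-Pf 7 has the lowest Con-Pf value for Sik1 (-0.04), Nr4a1 (0.16), Egr2 (-0.15) and Arc (0.12).

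The Con-Pf array with the least Sik1 was also that with the least of several targets. Relative to the mean over all arrays, Con-Pf 7 had -0.04 for Sik1, 0.16 for Nr4a1, -0.15 for Egr2, -0.02 for Fos and 0.12 for Arc. Con-Pf 8, with the most Sik1 (0.34), had 1.07 for Egr2 and was the highest of the Con-Pf arrays for Egr2 and for Nr4a1. For the other targets shown it was not the highest, with 0.81 for Fos (1.34 in Con-Pf 5) and 0.78 for Arc (0.84 in Con-Pf 6). Con-Pf 10 had 0.28 for Sik1, and the most Srf (0.27) and the least Creb1 (-0.26) of its group. Only Con-Pf 7 and Con-Pf 9 had less Fos than its 0.23 within Con-Pf. These values are given array by array as a description.

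Further genes of the pathway were read from lists, each gene by its probe set with the highest mean, with medians beside 0.02 over all probe sets in Con-Pf against Con and 0.01 in Nic against Con-Pf. All these lists were drawn up with earlier results of these data known, so their counts are only a description. Of 10 genes of the CREB family and related factors 9 were tested and 0 was called by limma in any comparison, with a median log2 difference of 0.09 in Con-Pf against Con. Creb3l1, which encodes a factor of the endoplasmic reticulum membrane, had 0.26 (standard error 0.09, adjusted p = 0.127 from limma), Atf1, the closest relative of CREB1 and CREM, had 0.14, Creb3 0.09 and Creb3l2 0.09. Of the 3 coactivator genes tested 0 was called, with 0.14 for Crtc2, the sister gene of Crtc1, and -0.01 each for the acetyltransferase genes Crebbp and Ep300. Without Con 3 and Con 5 the medians were 0.05 for the CREB family and 0.03 for the coactivators, with 0 called. Creb3l1, Creb3, Atf1 and Crtc2 had an unadjusted p under 0.05 in this comparison, while Creb3l2, Crebbp and Ep300 did not.

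Of 15 genes tested from the kinase cascades upstream of CREB1, which include regulatory subunits and inhibitors, 1 fell in Con-Pf against Con and 0 rose. The median was -0.06, and 2 of the 15 had a positive difference, as had 55.8% of all probe sets. Without Con 3 and Con 5 it was 7 of the 15, with a median of -0.03. Camkk1, which encodes a kinase that activates calcium and calmodulin-dependent kinases, was 8.54 ± 0.12 in Con-Pf (SD, n = 10) and 8.78 ± 0.09 in Con (SD, n = 8) and so fell by 0.24 (log2, standard error 0.05, adjusted p = 0.0103 from limma), where 0.260% of all probe sets fell. The call was lost without Con 3 and Con 5 (-0.21, adjusted p = 0.0777 from limma) and with Con-Pf 9 and 10 counted as Con (-0.16, adjusted p = 0.348 from limma). Camk4, the nuclear kinase downstream of it, had -0.14 (adjusted p = 0.0949 from limma), its sister Camkk2 -0.12 and Pkia, which encodes an inhibitor of protein kinase A, -0.24 (adjusted p = 0.0949 from limma). In Nic against Con-Pf, which shares the Con-Pf arrays with the comparison just given, 13 of the 15 had a positive difference, as had 55.9% of all probe sets, among them Camkk1 with 0.15 (adjusted p = 0.723 from limma), and 0 was called.

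Among genes other than Sik1 that were tested and whose products act on CRTC or bind SRF, 0 was called by limma. Those listed for CRTC were SIK genes other than Sik1, other kinase genes, and genes of calcineurin subunits and calcineurin regulators. Sik1, whose product also acts on CRTC1 and which was called higher in Con-Pf against Con, was left out of this list as a regulator. The 9 tested had medians of 0.01 in Nic against Con-Pf and -0.00 in Con-Pf against Con. Sik2 had -0.21 in Nic against Con-Pf (standard error 0.08, adjusted p = 0.883 from limma) and 0.11 in Con-Pf against Con. The calcineurin subunit genes Ppp3ca and Ppp3cc had -0.06 and -0.00 in Con-Pf against Con, and the calcineurin regulator gene Rcan2 had 0.05. Of 4 cofactor genes of SRF tested 0 was called, with 0.13 for Fhl2, 0.13 for Elk3, 0.07 for Elk4 and -0.02 for Elk1 in Con-Pf against Con. The MRTF genes had no probe set with a single symbol, and Myocd was below the filter.

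Some targets had larger log2 differences than any of the regulators. Among 18 CREB target genes 15 were tested. The list was drawn up with earlier results of these data known, so its counts are only a description. In Con-Pf against Con, where 1.00% of all probe sets rose, 6 rose, 9 did not pass and 0 fell, with a median of 0.25. Nr4a1, an orphan nuclear receptor gene, was 10.10 ± 0.44 in Nic (SD, n = 7), 11.08 ± 0.31 in Con-Pf (SD, n = 10) and 9.63 ± 0.18 in Con (SD, n = 8). Its difference between Con-Pf and Con was 1.44 (adjusted p = 4.16e-07 from limma). Fos, Junb and Rgs2, genes of the AP-1 subunits and of a regulator of G protein signalling, rose by 1.07, 0.79 and 0.61. These 4 were named for their small p-values. In this comparison 13 of the 15 had a positive difference, Penk among them with only 0.05. Nr4a2 had -0.41 (adjusted p = 0.204 from limma) and Ppargc1a -0.06. In Nic against Con-Pf, where 0.171% of all probe sets fell, 5 of the 15 fell and 0 rose, Fos by 0.98, Nr4a1 by 0.97, Junb by 0.65 and Rgs2 by 0.40, and in Nic against Con 0 was called. Without Con 3 and Con 5 the counts were 6 that rose and 5 that fell, and with Con-Pf 9 and 10 counted as Con they were 5 and 3.

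The SRF targets of the TCF arm and of the actin arm gave different counts. Of 8 tested TCF targets 6 rose in Con-Pf against Con and 0 fell, with a median of 0.84, where 1.00% of all probe sets rose. In Nic against Con-Pf 5 fell, with a median of -0.67, where 0.171% of all probe sets fell. Without Con 3 and Con 5, 5 rose and 5 fell, and with Con-Pf 9 and 10 counted as Con, 4 rose and 2 fell. Egr1, a zinc finger factor gene with several CArG boxes in its known promoter, rose by 0.55 (standard error 0.06), Egr2 by 1.22, Fos by 1.07 and Arc, a synaptic gene, 2.14-fold. Of 13 tested targets of the actin and MRTF arm 1 rose and 0 fell in Con-Pf against Con, with a median of 0.01. It was Ccn1, a secreted matrix protein gene (7.69 ± 0.25 in Con-Pf, SD, n = 10, and 7.21 ± 0.17 in Con, SD, n = 8), which rose by 0.48 (adjusted p = 0.00264 from limma) and was not called with Con-Pf 9 and 10 counted as Con (0.38, adjusted p = 0.199 from limma). Zyx, a focal adhesion gene, had 0.14, Cfl1, an actin severing gene, 0.12, and Vcl, the vinculin gene, -0.16, and these did not pass. The difference between the arms was not tested. Fos, Fosb and Npas4 stand on both the CREB and the TCF list, and all target lists were drawn up with earlier results of these data known.

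**Figure D5:**
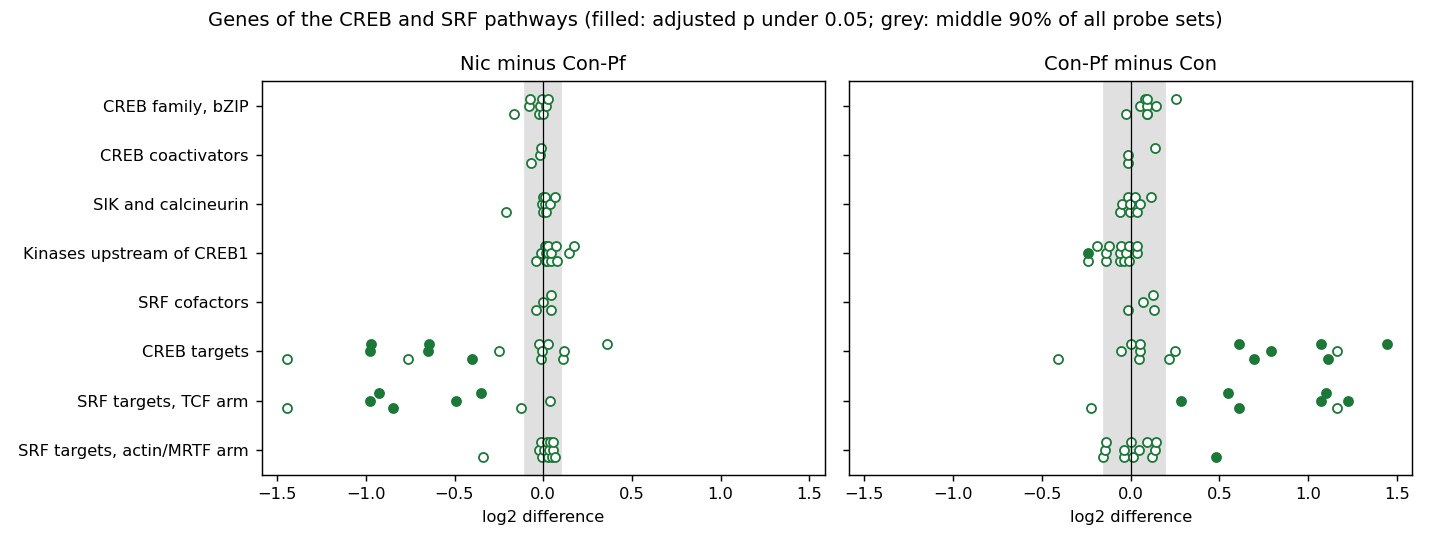
Log2 differences of the genes tested in 8 lists of the CREB and SRF pathways, for Nic minus Con-Pf and Con-Pf minus Con, with filled points for an adjusted p under 0.05 from limma and a grey band from which the lowest and the highest 5% of all 14607 probe sets are left out. The CREB targets (median 0.25) and the TCF arm of the SRF targets (median 0.84) spread to the right in Con-Pf minus Con, while the actin arm (median 0.01) lies mostly in the band. The lists were drawn up with earlier results of these data known.

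The windows before the starts were also read for the genes called in Con-Pf against Con. Of 100 named genes that rose and had a window, 10 held a full CRE, 43 a short CRE and 5 a CArG box. Of 7482 named genes tested with a window, 3.02% held a full CRE, 29.8% a short CRE and 1.16% a CArG box, and of 29 that fell, 1 held a full CRE, 11 (37.9%) a short CRE and 0 a CArG box. A gene with several starts was counted once if any of its windows held the motif. The counts are descriptive and were not tested.

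Markers of other cells were read in the same arrays. The summed level of 4 cortical and thalamic neuron markers tested (of 9 listed) was between 14.22 and 14.47 in Nic, between 14.19 and 14.38 in Con-Pf and between 14.24 and 14.41 in Con, on the log2 scale, and Slc17a6, Neurod2 and Neurod6 were below the filter. The brightest of the 4, Nrgn and Camk2a, carry most of this sum, so it says little about the other 2, Slc17a7 and Cck. Whether Nrgn and Camk2a mark cortical or thalamic neurons within striatal tissue was not tested. The differences of Nic from Con-Pf were 0.02 for Nrgn and 0.01 for Camk2a. Slc17a7, a glutamate transporter gene of cortical neurons, averaged 8.86 ± 1.19 in Nic (SD, n = 7), 7.68 ± 0.35 in Con-Pf (SD, n = 10) and 8.31 ± 0.91 in Con (SD, n = 8), with a difference of Nic from Con-Pf of 1.18 (standard error 0.38, adjusted p = 0.576 from limma). Cck, a neuropeptide gene of cortical neurons, averaged 8.08 ± 0.62 in Nic (SD, n = 7), 7.55 ± 0.18 in Con-Pf (SD, n = 10) and 7.74 ± 0.27 in Con (SD, n = 8), with a difference of Nic from Con-Pf of 0.53 (standard error 0.17, adjusted p = 0.609 from limma). The summed level of the 2 choroid plexus markers tested (of 7 listed) ran from 7.88 to 11.64 in Nic, from 8.04 to 13.80 in Con-Pf and from 7.94 to 13.55 in Con. By limma 0 of the markers of cortical neurons, choroid plexus, astrocytes, oligodendrocytes, microglia, endothelial and mural cells tested was called in any comparison. In Con-Pf against Con 0 of 6 endothelial markers had a positive difference (median -0.07), where 55.8% of all probe sets had one. The count was 1 of 4 for cortical neurons, 2 of 2 for choroid plexus and 3 of 6 for astrocytes. It was 4 of 5 for oligodendrocytes, 3 of 6 for microglia and 3 of 8 for mural and meningeal cells. The part of these cells in the values of Sik1 and Srf was not tested.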

How the data were processed

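The log2 expression values were made by the authors with RMA, in which arrays are background-corrected, brought to 1 distribution and summarised per probe set. RMA and Affymetrix Expression Console 1.1 stand in the submitters' processing notes. The table deposited holds the 25 arrays left after the authors had removed 2 Con arrays and 1 Nic array. Titles gave each array its group. Symbols came from the platform annotation: of the 14607 probe sets kept (mean at or above quantile 0.5), 9606 carry 1 symbol, 100 several and 4901 none. The model was fitted with limma 3.58.1 in R 4.3.3 and tested on simulated arrays with planted changes. Correlations within groups were tested by exact permutation (7 or 8 arrays) or 100000 resamples (10 arrays). Figures were drawn with matplotlib 3.10.9.

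The members and lists were chosen with earlier results of these data known. Named genes are the 5 regulators, up to 4 genes of each pathway list with the smallest p over the comparisons, and the 3 genes most like each called regulator. Markers, genes added for the array plot, Fosb, Npas4, Myocd, Nr4a2 and Ppargc1a were named outside this rule. All 5 regulators passed the filter, so the test meant for probe sets below it was not needed. The alternatives were the methods' t-test without pooled variance (Welch) and with it, limma on the compared groups only, trended robust moderation, array weights, no filter or a stricter filter (quantile 0.75), further quantile normalization, median centring, the treatment of Con-Pf 9 and 10, a replicate block and leaving out each array. The fit without Con 3 and Con 5 and the fit of the block's arrays without the block were chosen after seeing the data.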

Additional observations from a re-analysis of the deposited data

Results flagged for a closer look

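Among the 15 combinations of the 5 regulators and 3 groups, 1 array stood far from the rest of its group by Dixon's criterion. Nic 1 had a log2 level of 10.50 for Srf (10.4959), the lowest of the 7 Nic arrays, and the nearest other Nic array was at 10.58. The gap was 0.628 of the range of the group, above the critical value for 7 arrays. Chance alone flags about 1 in 20 groups. Without Nic 1 the difference of Nic from Con-Pf for Srf was -0.11 and did not pass either (adjusted p = 0.856 from limma).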

How the results depend on the processing

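The difference of Sik1 between Con-Pf and Con kept its sign under all alternatives (0.28 to 0.37) and lost its call only with Con-Pf 9 and 10 counted as Con. That of Srf kept its sign (0.10 to 0.20), and of the 5 regulators 1 instead of 2 was called in this comparison, with Srf lost, by the Welch t-test (adjusted p = 0.0840), the pooled t-test (0.0602), limma on the compared groups alone (0.0721), limma with no filter (0.0580), without Con-Pf 9 and 10 (0.0596), with the replicate block over replicates 1 to 7 (0.0917), with the same arrays and no block (0.0820) and without Con 3 and Con 5 (0.0801). With Con-Pf 9 and 10 counted as Con 0 were called (Srf 0.10, adjusted p = 0.424). Over all probe sets the 184 calls of Con-Pf against Con became 66 with the Welch t-test, 84 with the pooled t-test, 99 with the compared groups alone, 96 with no filter, 116 without Con-Pf 9 and 10, 27 with them counted as Con and 85 without Con 3 and Con 5. With 1 array left out they ranged from 104 to 480, where the array left out was Con 1 for 114, Con 3 for 104, Con 4 for 285, Con 5 for 108, Con 6 for 344, Con 7 for 480, Con 8 for 295 and Con-Pf 2 for 116, and 2 regulators were called each time. The 27 calls of Nic against Con-Pf became 6 with the Welch t-test, 8 with the pooled t-test, 55 with array weights, 14 with the stricter filter, 5 with Con-Pf 9 and 10 counted as Con, 14 with the replicate block and 17 with its arrays and no block, and 18 to 35 with 1 array left out; 0 to 1 regulators were called, Sik1 only without Con-Pf 7. The difference of Crtc1 between Nic and Con turned to -0.00707 without Con 5 and to -0.0367 without Con 3 and Con 5. The cause of these changes was not tested. Same-numbered arrays did not deviate together throughout. For Con-Pf and Con 4 of 7 pairs correlated over 0.1, and all 7 were positive (median 0.10, range 0.02 to 0.18). For Nic and Con-Pf it was 4 of 7 (median 0.11, range -0.21 to 0.34). For Nic and Con it was 2 of 7 (median -0.05, range -0.36 to 0.31). Arrays with different numbers were not compared, so what the shared number stands for was not tested. Scaling moved the median of all probe sets by less than 0.1. The stricter filter removed Creb1 and Crem. Precision is limited by 7 to 10 animals per group.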
